A study of Mus musculus with 15 samples.

Results

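Motor neurons of SMA mice treated with Pifithrin-alpha, an inhibitor of p53, were compared with motor neurons of SMA mice treated with SMN-C3, a small molecule that shifts splicing of human SMN2 towards the transcript for full-length SMN protein. The comparison took its members from the treatment labels: 3 libraries of SMA+Pifithrin-alpha and 3 of SMA+SMN-C3, 6 of the 15 libraries in all. RNA came from motor neurons of lumbar segments L1 to L3 that had been marked with cholera toxin subunit B, a retrograde tracer, and cut out by laser capture at postnatal day 6. Every mouse of the series was on the FVB background and carried the human SMN2 and SMNΔ7 transgenes. The SMA mice were SMNΔ7 animals without mouse Smn (Smn-/-;SMN2;SMNΔ7), and the WT mice were littermates with intact mouse Smn (Smn+/+;SMN2;SMNΔ7). Treatment was by daily intraperitoneal injection, starting at postnatal day 0. Pifithrin-alpha was given at 2.2 mg/kg and SMN-C3 at 3 mg/kg, so target and dose differ together. WT and SMA mice, with 3 libraries each, received vehicle and serve here as reference levels. Males and females were used in equal proportions, and the labels do not say which library came from which sex or how many animals went into a library. The labels call the libraries of a group biological replicates without naming the animals, so a p-value measures the spread between these libraries only.

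p53 is a transcription factor held low in healthy cells by its inhibitors Mdm2 and Mdm4. When it accumulates, it turns on genes for cell cycle arrest, cell death and DNA repair, and also Mdm2 itself, which closes a negative feedback loop. SMN assembles the Sm protein rings of spliceosomal snRNPs, and in SMA its loss is known to disturb splicing and to activate p53 in vulnerable motor neurons. Pifithrin-alpha acts downstream of SMN by blocking transcription driven by p53, whereas SMN-C3 acts on the supply of SMN protein.

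Levels are given as scaled TPM, the deposited TPM (transcript abundance normalized for length and library total) divided by 1 factor per library that aligns the libraries on their typical gene. Differences are log2(scaled TPM + 1) of SMA+Pifithrin-alpha minus SMA+SMN-C3, with the standard error (SE) of limma, so a positive value means a higher level with Pifithrin-alpha. The added 1 understates the difference of genes with low levels. Read depth cannot be judged from TPM and is unknown.

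The 6 libraries were motor neuron libraries by their markers, and 1 of them stood apart. Chat, the acetylcholine-synthesizing enzyme, lay between 57.7 and 142 scaled TPM, and Prph, the neuronal intermediate filament peripherin, between 854 and 2143. Mouse Smn1, absent from SMA mice by genotype, was at most 0.827 scaled TPM in the 6 libraries against 11.4 to 21.7 in WT. The human SMN2 transgene, on which SMN-C3 acts, was not analysed here. Between 12901 and 13069 genes reached 1 TPM with SMN-C3, and 14474, 13585 and 12311 in Pifithrin-alpha 1, 2 and 3. Mitochondrially encoded transcripts made up 5.78%, 12.6% and 20.4% of TPM in Pifithrin-alpha 1, 2 and 3, and 11.3%, 5.92% and 6.92% in SMN-C3 1, 2 and 3. Pifithrin-alpha 3 also differed most along the GC content of genes. Its median difference from the SMN-C3 mean ran from 1.071 in genes under 40% GC (718 genes) to -0.958 in genes of at least 60% GC (710 genes). In Pifithrin-alpha 2 the same 2 medians were 0.447 and -0.276, a smaller slope in the same direction, and in Pifithrin-alpha 1 they were -0.11 and -0.137. Many of the lists below are therefore given also without Pifithrin-alpha 3 or with the GC trend of each library removed. Where neither is stated, the median is that of all 6 libraries and can rest on Pifithrin-alpha 3. Among the reference libraries WT 1 stood apart as well. Mitochondrially encoded transcripts made up 21.9% of its TPM, against 7.55% in WT 2 and 7.52% in WT 3, so WT ranges can rest on that library.

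No gene separated the treatments at an adjusted p under 0.05. Of 15425 genes tested with limma, 0 were called (0%), and the smallest adjusted p was 0.165, for Ly6d. At an unadjusted p under 0.05, 773 genes (5.01%) were higher with Pifithrin-alpha and 795 (5.15%) lower. On unscaled TPM that split was 771 higher and 332 lower. In 1297 genes (8.41%) all 3 Pifithrin-alpha libraries lay above all 3 SMN-C3 libraries, and in 1432 genes (9.28%) all 3 lay below. These shares are the background for each list that follows, and a gene of the first or second kind is called wholly above or wholly below. At any size of difference, 8649 of the 15425 genes (56.1%) were higher with Pifithrin-alpha and 6748 lower, the background for counts of members higher or lower. The median difference over all genes was 0.082, with a median SE of 0.371. Weighting the libraries by their spread, a setting that gave Pifithrin-alpha 2 a weight of 4.04 and Pifithrin-alpha 3 one of 0.234, called 1556 genes. The number of calls therefore depended on this weighting.

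The p53 network lay higher with Pifithrin-alpha than with SMN-C3. The 4 lists of p53, its regulators and its targets held 59 genes, of which 54 passed the filter on low values. Of these, 40 were higher and 14 lower with Pifithrin-alpha, 20 (37.0%) lay wholly above and 3 (5.6%) wholly below, and 15 reached an unadjusted p under 0.05, all of them higher. Over all genes 56.1% were higher. The median difference was 0.418, against 0.082 over all genes. The mean log2 level of the 54 genes was 4.27, 4.22 and 4.13 in Pifithrin-alpha 1, 2 and 3. It was 3.69, 3.82 and 3.73 with SMN-C3, 4.22 to 4.79 in SMA and 3.18 to 3.45 in WT. Pifithrin-alpha 1 thus lay within the SMA range, and Pifithrin-alpha 2 (4.219) and 3 lay below its lower end of 4.224. The SMN-C3 libraries lay further below, between SMA and WT. Without Pifithrin-alpha 3 the median was 0.405. With the GC trend removed it was 0.374, with 20 members wholly above and 0 wholly below.

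Promoter sequences are shown for members from either side of this comparison, to let a reader see what p53 could read there. A single p53 half-site, the 10-base consensus that p53 binds as a pair, was searched in RefSeq promoters of GRCm38.p6, from 250 bases before to 50 after the start site. The consensus reads alike on both strands, so 1 search covers both. It occurred in 2582 of 27025 gene symbols (9.6%). Among the tested members of the p53 lists, which were assembled as known targets, 17 of 46 with a promoter entry held it (37.0%). The share was 6 of 14 (42.9%) in members wholly above and 11 of 32 (34.4%) in the other members. A match is a description of letters and not a binding site. The windows run 5′ to 3′ along the gene's strand, with each match in capitals and its position counted from the start site. Mdm2, Ccng1, Gtse1 and Ddit4l lay wholly above with Pifithrin-alpha, Cdkn1a and Aen overlapped between the treatments, and Bax lay wholly below.
Mdm2, chr10:117710900-117710979, minus strand, match at -186: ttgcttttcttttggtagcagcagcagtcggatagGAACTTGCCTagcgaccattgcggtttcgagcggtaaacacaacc
Ccng1, chr11:40755427-40755506, minus strand, match at -185: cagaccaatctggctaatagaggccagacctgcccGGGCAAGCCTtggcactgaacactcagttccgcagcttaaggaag
Gtse1, chr15:85859920-85859995, plus strand, match at 9: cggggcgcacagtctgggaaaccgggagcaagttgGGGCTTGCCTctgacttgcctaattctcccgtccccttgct
Ddit4l, chr3:137623547-137623626, plus strand, match at -90: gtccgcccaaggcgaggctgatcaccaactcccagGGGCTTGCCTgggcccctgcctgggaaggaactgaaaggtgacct
Cdkn1a, chr17:29090871-29090972, plus strand, 2 matches, the first at -73: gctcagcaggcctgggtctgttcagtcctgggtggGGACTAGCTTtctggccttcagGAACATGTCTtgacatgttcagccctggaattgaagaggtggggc
Aen, chr7:78895902-78895976, plus strand, match at 10: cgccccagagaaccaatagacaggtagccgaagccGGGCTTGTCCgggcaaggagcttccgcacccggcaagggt
Bax, chr7:45467055-45467134, minus strand, match at -201: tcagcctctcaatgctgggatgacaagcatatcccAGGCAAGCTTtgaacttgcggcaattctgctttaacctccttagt
Cdkn1a was the window among these with 2 matches spaced by at most 13 bases, as found in 20 of all symbols searched. Its groups overlapped, but its difference of 0.399 was close to the median of 0.418 over the p53 lists.

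All 8 tested members of the regulator list were higher with Pifithrin-alpha, 5 of them wholly above (62.5%), with a median difference of 0.522. Mdm2, the ubiquitin ligase that removes p53 (ENSMUSG00000020184.15, GRCm38 chromosome 10, 117688875 to 117710758, minus strand), stood at 36.8, 32.3 and 44.5 scaled TPM in Pifithrin-alpha 1, 2 and 3, and at 14.0, 17.2 and 19.5 with SMN-C3. The groups did not overlap, and the Pifithrin-alpha libraries fell within the SMA values of 22.6 to 46.3. SMN-C3 1 lay within the WT values of 10.6 to 14.1, and SMN-C3 2 and 3 lay between WT and SMA. The difference was 1.12 (SE 0.28, limma adjusted p = 0.289). Over transcripts annotated as protein-coding alone it was 0.61. Mdm4, the second inhibitor of p53, stood at 12.3, 11.3 and 10.2 scaled TPM with Pifithrin-alpha and at 7.5, 3.64 and 3.7 with SMN-C3. Its difference was 1.10 (SE 0.41). The groups did not overlap. WT 1, the reference library that stood apart, exceeded every other library at 20.8, so a reading of Mdm4 against WT can rest on it. With the GC trend removed the difference of Mdm4 was 0.72. Ccng1, the cyclin G1 that p53 induces and that feeds back on Mdm2, stood at 54.5, 85.0 and 123 scaled TPM with Pifithrin-alpha against 47.4, 39.0 and 36.8 with SMN-C3. Pifithrin-alpha 3 was the highest of all, and the difference of Ccng1 of 1.004 (SE 0.34) was 0.72 without it and 0.55 with the GC trend removed. Trp53 itself, which is controlled mainly as a protein, overlapped between the groups, at 35.1, 32.1 and 22.4 against 17.1, 35.8 and 21.6 scaled TPM. Usp7, a deubiquitinase that acts on Mdm2 and p53, was also wholly above, by 0.44, but its difference was -0.28 over protein-coding transcripts alone and 0.07 with the GC trend removed. Trp73, a p53 relative, was listed at 0 in every SMN-C3 library and at 0.499, 0.256 and 0.111 with Pifithrin-alpha. Trp63 and Cdkn2a did not pass the filter.

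Most targets that act in cell cycle arrest were higher with Pifithrin-alpha, though none passed the test. Of 13 tested, 10 were higher with Pifithrin-alpha, 4 wholly above (30.8%) and 1 wholly below (7.7%), with a median of 0.399. Plk2, a polo-like kinase, stood at 33.2, 25.6 and 28.2 scaled TPM with Pifithrin-alpha and at 10.6, 11.6 and 10.6 with SMN-C3. Replicates were tight in both groups, and the SMA values of 24.6 to 53.3 overlapped those of Pifithrin-alpha but not those of SMN-C3. The difference was 1.32 (SE 0.28, limma adjusted p = 0.289). Zfp365, a repair and centrosome factor, stood at 15.4, 22.4 and 16.1 against 4.14, 5.26 and 9.78 scaled TPM (difference 1.42, SE 0.31). Gtse1, which binds microtubules and p53, stood at 7.5, 4.83 and 5.12 against 1.43, 2.64 and 1.03 scaled TPM (difference 1.36, SE 0.36). Both lay wholly above, as did Btg2, an antiproliferative factor, by a difference of 0.61. Cdkn1a, the p21 cell cycle inhibitor and the best known target of p53, overlapped between the groups. It stood at 576, 503 and 307 scaled TPM with Pifithrin-alpha, at 347, 334 and 333 with SMN-C3, at 529 to 1314 in SMA and at 41.5 to 50.1 in WT. Both treatments lay below or at the bottom of the SMA range and far above WT, and Pifithrin-alpha 3 was the lowest of the 6 libraries. The difference of 0.40 (SE 0.32, limma adjusted p = 0.66) was 0.67 without that library and 0.56 with the GC trend removed. Plk3, another polo-like kinase, lay wholly below, by a difference of -0.65.

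Most cell death targets were higher with Pifithrin-alpha. Of 17 tested, 13 were higher with Pifithrin-alpha, 7 wholly above (41.2%) and 1 wholly below (5.9%), with a median of 0.505. That median was 0.166 when only genes with a mean of at least 5 TPM were kept. Fas, a death receptor of the cell surface, stood at 12.8, 22.4 and 49.4 scaled TPM with Pifithrin-alpha, at 4.85, 5.2 and 2.78 with SMN-C3, at 14.4 to 43.9 in SMA and at 0 to 3.21 in WT. The groups did not overlap, and the Pifithrin-alpha libraries spread over the SMA range. The difference was 2.30 (SE 0.54, limma adjusted p = 0.289), and 1.80 without Pifithrin-alpha 3. Pmaip1, which encodes the BH3-only protein Noxa, stood at 9.52, 14.3 and 21.2 against 6.22, 1.7 and 2.02 scaled TPM (difference 1.97, SE 0.49). Perp, a membrane protein that takes part in apoptosis, stood at 32.9, 45.2 and 48.7 against 12.9, 13.2 and 17.3 scaled TPM (difference 1.48, SE 0.38). In Pmaip1 and Perp the Pifithrin-alpha libraries lay within the SMA range or at its lower edge, and SMN-C3 1 was the highest of its group in Pmaip1. Ei24, Tnfrsf10b, Trp53inp1 and Zmat3 were also wholly above, by 0.50 to 0.81. Other cell death genes did not show this order. Bax, the pore-forming effector, stood at 209, 206 and 144 scaled TPM with Pifithrin-alpha and at 232, 240 and 226 with SMN-C3. It lay wholly below by -0.34 (SE 0.23), a difference that became 0.05 with the GC trend removed. Bbc3, which encodes the BH3-only protein Puma, overlapped at 32.9, 27.8 and 14.6 against 23.2, 40.7 and 38.04 scaled TPM. Aen, an apoptosis nuclease, was alike at 91.0, 78.7 and 85.8 against 82.1, 66.6 and 85.1, and Phlda3, an Akt inhibitor, at 277, 312 and 114 against 257, 278 and 257 scaled TPM. All 6 libraries exceeded WT in Aen, and 5 of 6 did in Phlda3, Pifithrin-alpha 3 being the exception. Eda2r, a TNF receptor family member, differed by 0.46 (SE 0.43) and overlapped.

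Targets in repair, metabolism and other roles were closer to the background. Of 16 tested, 9 were higher, beside 56.1% over all genes, 4 wholly above (25%) and 1 wholly below (6.2%). The median was 0.164 and became -0.01 without Pifithrin-alpha 1. Ddit4l, a stress-induced inhibitor of mTOR signalling, was the exception. It stood at 14.9, 7.27 and 11.1 scaled TPM with Pifithrin-alpha and at 0.387, 1.14 and 0.749 with SMN-C3, against 7.3 to 29.0 in SMA. No SMN-C3 library exceeded 1.14, and the difference was 2.75 (SE 0.55, limma adjusted p = 0.243). Polk, a translesion DNA polymerase, stood at 4.2, 7.63 and 11.5 against 3.45, 0.522 and 1.68 scaled TPM (difference 1.65, SE 0.46). Slc19a2, a thiamine transporter, and Rrm2b, a ribonucleotide reductase subunit, were the other members wholly above, and Sco2, a copper chaperone of cytochrome c oxidase, lay wholly below by -0.65. Ephx1, an epoxide hydrolase, Triap1 and Fdxr overlapped with differences between -0.10 and 0.10.

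**Figure D1:**
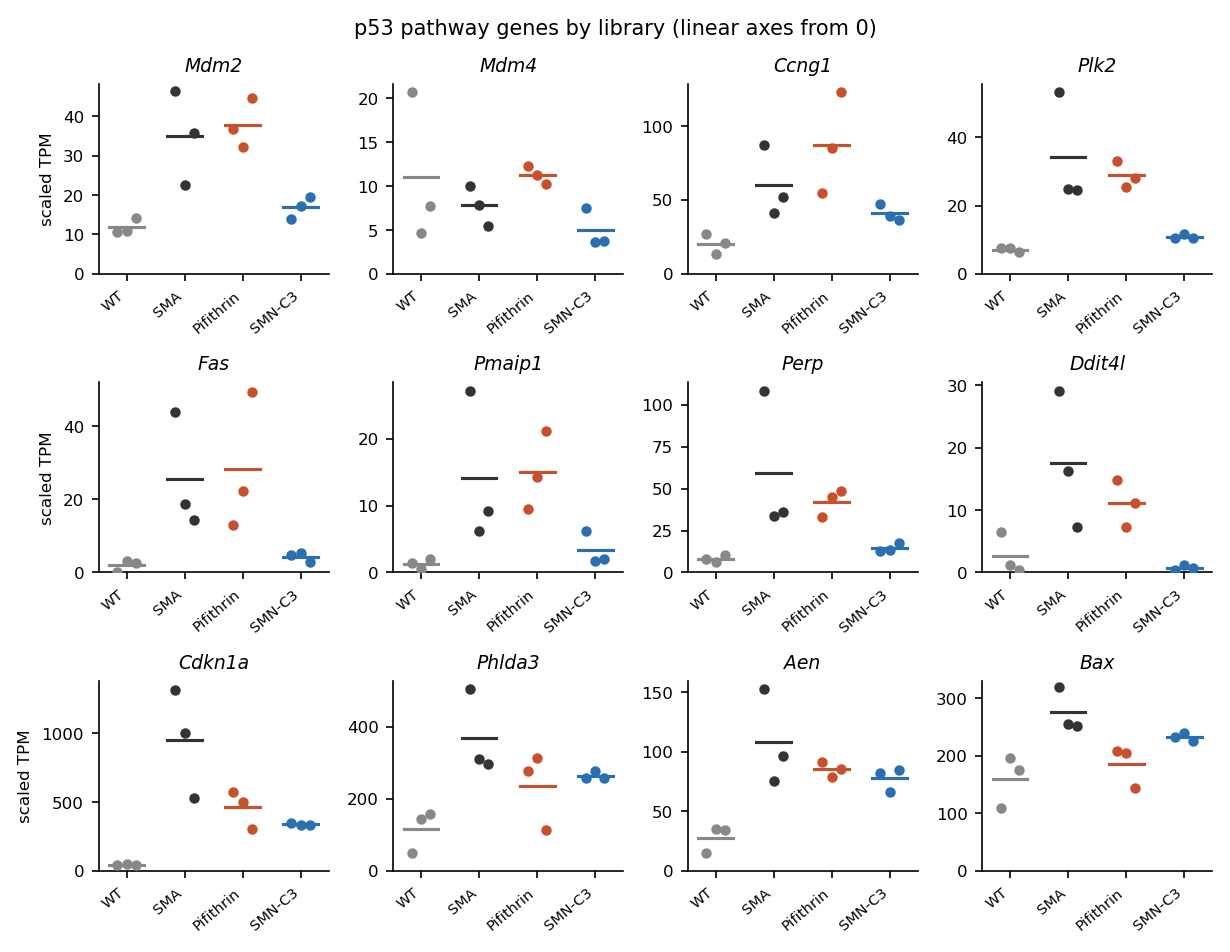
Scaled TPM of 12 p53 pathway genes (vertical axes, linear from 0, a separate scale for each gene) in WT, SMA, SMA+Pifithrin-alpha and SMA+SMN-C3; each point is 1 library and each bar the mean of 3. From Mdm2 to Ddit4l the Pifithrin-alpha points lie above the SMN-C3 points, as with Plk2 at 25.6 to 33.2 against 10.6 to 11.6, whereas Cdkn1a, Phlda3, Aen and Bax do not show this order.

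Read against vehicle-treated SMA, the members of the p53 lists differed by a median of -0.22 with Pifithrin-alpha and -0.54 with SMN-C3. Both comparisons share the 3 SMA libraries and are given side by side only. The regulators had medians of 0.13 and -0.60, arrest targets -0.24 and -0.81, cell death targets -0.28 and -0.48, and the remaining targets -0.18 and -0.34. The 3 libraries of Pifithrin-alpha were not equal: 34, 32 and 27 of the 54 members lay above all SMN-C3 libraries in Pifithrin-alpha 1, 2 and 3, and 7, 5 and 12 below all of them. Over all genes these shares were 29.3%, 29.2% and 38.8% above, and 26.5%, 26.4% and 32.3% below.

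Genes raised in SMA showed the same order as the p53 lists, and most of them are not members of those lists. Whether p53 controls the others was not tested. In limma, 44 of the 15425 genes (0.285%) were higher in SMA than in WT at an adjusted p under 0.05. That contrast sets SMA against WT, but its spread, scaling and filter come from the fit over all 15 libraries, the 6 treated ones included. With Pifithrin-alpha 33 of the 44 were higher than with SMN-C3 and 10 lower, 17 lay wholly above (38.6%) and 3 wholly below (6.8%), and the median difference was 0.595. Against SMA, the same genes had medians of -0.73 with Pifithrin-alpha and -1.41 with SMN-C3, beside a median SMA increase of 2.53 over WT. Since these genes were picked as high in the SMA libraries, a lower value in any other group is partly built in. With the GC trend removed, 24 lay wholly above and 1 wholly below, with a median of 0.717. Without Pifithrin-alpha 3 the median was 0.686. The 10 members that belong to the p53 lists had a median of 1.22, and the 34 others 0.554, with 11 of the 34 wholly above (32.4%) and 3 wholly below (8.8%).

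Ly6d, a GPI-anchored surface protein (ENSMUSG00000034634.7, chromosome 15, 74762056 to 74763620, minus strand), gave the smallest p of the comparison. It stood at 9.37, 13.7 and 5.37 scaled TPM with Pifithrin-alpha and at 37.9, 48.0 and 6.55 in SMA. It was listed at 0 in all 3 SMN-C3 and all 3 WT libraries. The limma adjusted p was 0.165. Plek2, a pleckstrin homology protein, stood at 21.8, 20.2 and 29.1 against 4.13, 6.02 and 5.86 scaled TPM (difference 1.96, SE 0.39). Tcea3, a transcription elongation factor, stood at 4.58, 7.35 and 1.85 against 0.119, 0 and 0 scaled TPM, and Gjb5, a connexin, at 7.85, 8.41 and 3.54 against 3.03, 0 and 0. In Icam1, an adhesion molecule of inflamed cells, the values were 9.75, 10.1 and 2.68 against 2.65, 0.191 and 1.96 scaled TPM. Pifithrin-alpha 3 was the lowest of its group in Ly6d, Tcea3, Gjb5 and Icam1, and in Icam1 it barely exceeded SMN-C3 1. The uncharacterized gene 1700007K13Rik stood at 52.7, 64.2 and 76.3 against 16.1, 29.5 and 15.6 scaled TPM (difference 1.65, SE 0.34). Them5, Robo3, Espn, Bglap2 and Acaa1b were also wholly above. Of Robo3, 3.36% of TPM came from transcripts annotated as protein-coding.

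Other SMA-raised genes overlapped between the treatments. Dcxr, a carbonyl reductase, stood at 155, 185 and 104 scaled TPM with Pifithrin-alpha, at 119, 118 and 101 with SMN-C3, at 191 to 436 in SMA and at 12.6 to 21.8 in WT. Crip2, a LIM-domain protein, stood at 145, 152 and 89.6 against 96.3, 87.4 and 133 scaled TPM, and Gpx3, a glutathione peroxidase, at 195, 228 and 122 against 200, 243 and 221. All 3 lay below SMA and above WT. In Dcxr and Crip2 the overlap came through Pifithrin-alpha 3, the lowest of its group in both. Without it the difference of Dcxr moved from 0.36 to 0.59 and that of Crip2 from 0.27 to 0.51, and with the GC trend removed they were 0.75 and 0.69. That of Gpx3 moved from -0.33 to -0.06 without that library. Another set lay the other way. Tspo, a protein of the outer mitochondrial membrane, stood at 7.6, 11.4 and 6.23 scaled TPM with Pifithrin-alpha, 26.8, 20.5 and 13.5 with SMN-C3, 10.7 to 39.7 in SMA and 3.26 to 5.32 in WT (difference -1.16, SE 0.39). Here the SMN-C3 libraries lay within the SMA range, and the Pifithrin-alpha libraries lay above WT, with 1 of them, Pifithrin-alpha 2, just inside the SMA range. Cox6b2, a testis-type subunit of cytochrome c oxidase, stood at 59.5, 57.1 and 55.3 against 96.9, 77.5 and 83.4 scaled TPM (difference -0.57, SE 0.34). Ift27, an intraflagellar transport protein, was wholly below by -0.25, a margin smaller than its SE of 0.26.

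**Figure D2:**
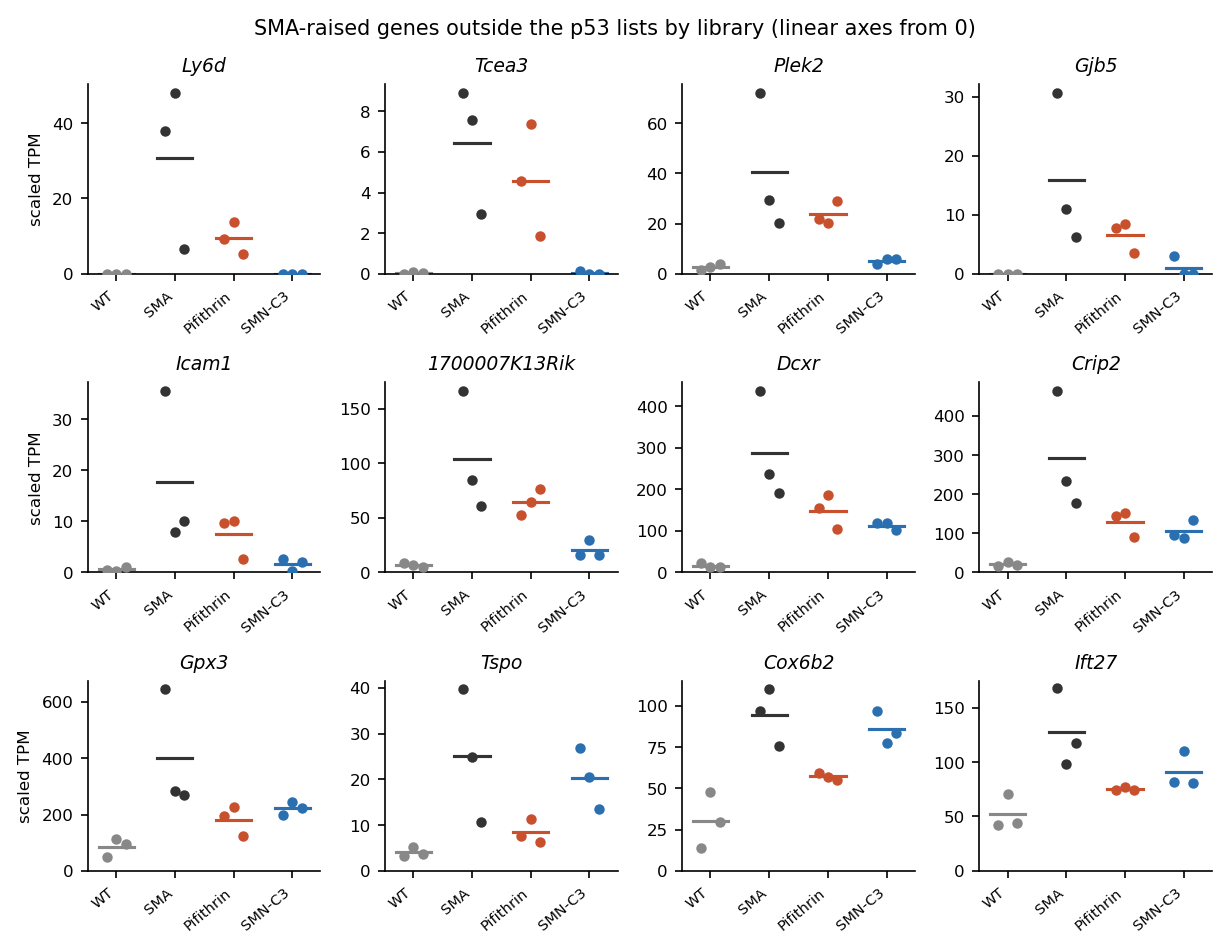
Scaled TPM of 12 SMA-raised genes outside the p53 lists (vertical axes, linear from 0, a separate scale for each gene); each point is 1 library and each bar the mean of 3 in WT, SMA, SMA+Pifithrin-alpha and SMA+SMN-C3. Ly6d is at 0 in every SMN-C3 library and at 5.37 to 13.7 with Pifithrin-alpha, Dcxr, Crip2 and Gpx3 overlap, and Tspo, Cox6b2 and Ift27 are lower with Pifithrin-alpha.

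Ribosomal and respiratory chain genes lay lower with Pifithrin-alpha than with SMN-C3, and the shares wholly below were larger than in any other list described here. Of 80 cytosolic ribosomal protein genes, 65 were lower and 15 higher, 44 lay wholly below (55%) and 1 wholly above (1.2%), with a median of -0.348. Of 84 nuclear genes of the respiratory chain, 60 were lower and 24 higher, 41 lay wholly below (48.8%) and 0 wholly above, with a median of -0.310. Of 80 mitochondrial ribosomal protein genes, 62 were lower and 18 higher, 29 lay wholly below (36.2%) and 0 wholly above, with a median of -0.246. The background shares were 9.28% below and 8.41% above. Against SMA the medians were -0.27 with Pifithrin-alpha and 0.14 with SMN-C3 for the cytosolic ribosome, -0.15 and 0.26 for the respiratory chain, and -0.05 and 0.21 for the mitochondrial ribosome.

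Single genes of these lists are named for a small p or for groups that do not overlap, so their regularity is partly built in. Rps15, a protein of the small ribosomal subunit, stood at 442, 411 and 347 scaled TPM with Pifithrin-alpha and at 752, 798 and 739 with SMN-C3 (difference -0.94, SE 0.24, limma adjusted p = 0.289). Ndufb10, a subunit of complex I, stood at 564, 499 and 647 against 935, 1045 and 1007 scaled TPM (difference -0.81, SE 0.24). Atp5g1, which encodes the c ring subunit of ATP synthase, stood at 2828, 2927 and 2425 against 4403, 5238 and 4534 scaled TPM (difference -0.79, SE 0.24). In each, every SMN-C3 library was above every Pifithrin-alpha library. Against SMA, Rps15 differed by -0.46 with Pifithrin-alpha and 0.47 with SMN-C3, Ndufb10 by -0.14 and 0.67, and Atp5g1 by -0.33 and 0.47. Mrps12, of the small mitochondrial ribosomal subunit, stood at 138, 146 and 118 against 225, 253 and 240 scaled TPM (difference -0.84, SE 0.22). Rps10, Rpl11, Rpl36, Ndufs8, Ndufb7, Mrps11 and Mrpl14 were likewise wholly below, by -0.64 to -0.89. With the trend on GC removed, Rps15, Ndufb10, Atp5g1 and Mrps12 had differences of -0.61, -0.59, -0.52 and -0.49.

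**Figure D3:**
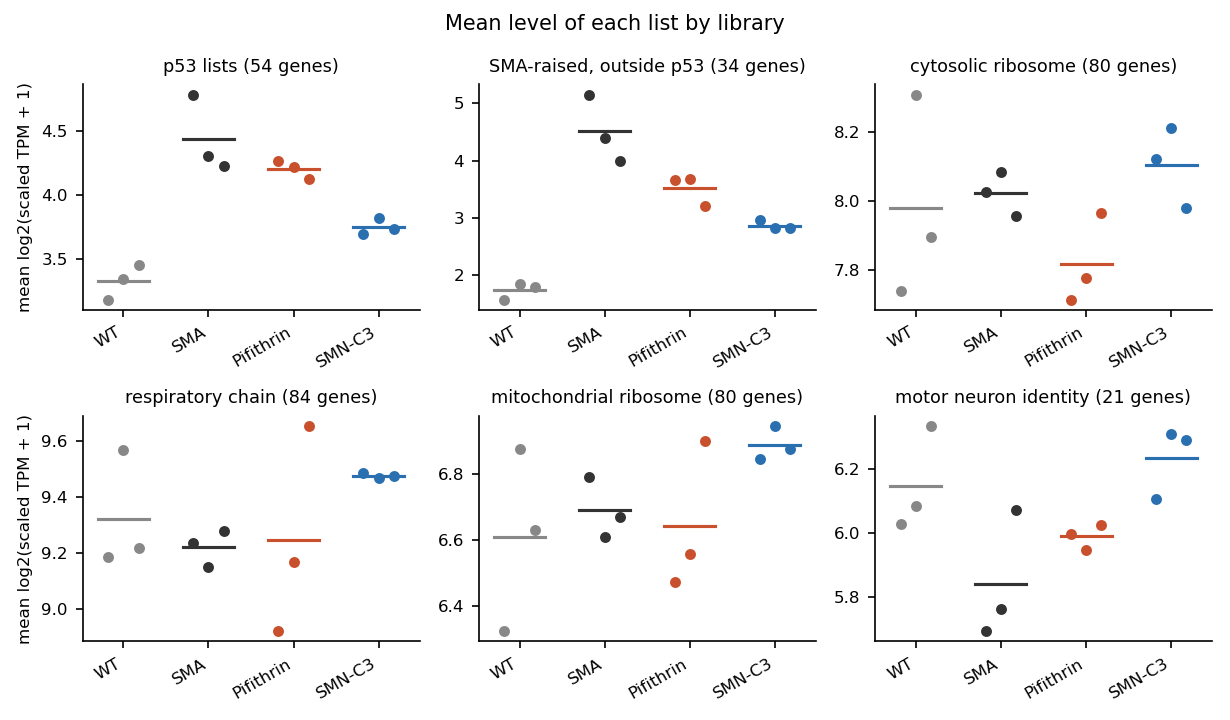
Mean log2(scaled TPM + 1) over the tested genes of 6 lists (vertical axes, which do not start at 0) in each library of WT, SMA, SMA+Pifithrin-alpha and SMA+SMN-C3; points are libraries and bars group means. The p53 lists are at 4.13 to 4.27 with Pifithrin-alpha and 3.69 to 3.82 with SMN-C3, and the respiratory chain mean of Pifithrin-alpha 3, at 9.65, is above every SMN-C3 library.

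These 3 lists did not look alike in all Pifithrin-alpha libraries. Of the 84 respiratory chain genes, 77, 62 and 41 lay below all SMN-C3 libraries in Pifithrin-alpha 1, 2 and 3, and 0, 5 and 36 above all of them. The mean log2 level of that list was 8.92, 9.17 and 9.65 in Pifithrin-alpha 1, 2 and 3 and 9.47 to 9.49 with SMN-C3, so Pifithrin-alpha 3 had the highest mean of the 6. For the cytosolic ribosome 68, 63 and 49 of 80 lay below, and for the mitochondrial ribosome 65, 60 and 34 of 80. In Pifithrin-alpha 3, 22 and 33 members of these lists lay above all SMN-C3 libraries. Without Pifithrin-alpha 3 the medians were -0.392, -0.458 and -0.368 for the cytosolic ribosome, respiratory chain and mitochondrial ribosome. With the GC trend removed they were -0.291, -0.232 and -0.203, and 34, 17 and 22 members lay wholly below. Transcript length moved with the result as well. Of 165 members shorter than 1000 bases 53.9% lay wholly below, and of 2130 other genes as short 15.1% did. The 13 mitochondrially encoded genes, of low GC content (median 37.1%), were all higher with Pifithrin-alpha, by a median of 0.510, with 0 wholly above, and their median was -0.04 with the GC trend removed. The mitochondrial share of Pifithrin-alpha 2 and 3 and the length and GC patterns stand beside these lists, and their part in the differences was not tested.

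Genes of motor neuron identity were mostly lower with Pifithrin-alpha. Of 21 tested, 16 were lower and 5 higher, 4 lay wholly below (19.0%) and 0 wholly above, with a median of -0.289. The medians against SMA were 0.01 with Pifithrin-alpha and 0.40 with SMN-C3. Chat stood at 89.9, 74.99 and 57.7 scaled TPM with Pifithrin-alpha, at 113, 142 and 119 with SMN-C3, at 64.6 to 84.7 in SMA and at 87.6 to 112 in WT. Every SMN-C3 library was above the highest WT library, and the Pifithrin-alpha libraries spread around the SMA values. The difference was -0.76 (SE 0.22, limma adjusted p = 0.294). Chat shares its locus and strand with Slc18a3, the vesicular acetylcholine transporter, so reads of these genes could be split between them. Mnx1 and Isl2, homeodomain factors that specify motor neurons, were wholly below by -0.67 and -0.63, and Prph by -0.65. Esrrg, a marker of gamma motor neurons, Slc5a7, the choline transporter, and Ret, the receptor kinase of the GDNF family, were among the 5 that were higher, with overlapping groups. Members of this list are GC-rich, with a median of 54.2% against 50.2% over all genes. With the GC trend removed the median was -0.158 and 3 lay wholly below, Mnx1 and Isl2 standing at -0.31 and -0.25 and Chat at -0.60. In captured tissue, fewer cells of a type and less RNA per cell cannot be told apart.

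Structural and synaptic genes of the neuron gave smaller shares. Of 18 axonal cytoskeleton and growth genes 13 were lower with Pifithrin-alpha and 2 wholly below (11.1%), with a median of -0.175. Both were cytoskeletal: Nefh, the heavy neurofilament, at 1089, 846 and 883 against 1159, 1609 and 1320 scaled TPM, and Tubb3, neuronal tubulin, at 1190, 1220 and 1214 against 1456, 2187 and 1734. With the GC trend removed their differences were -0.19 and -0.22. Of 21 synaptic vesicle genes 3 were wholly below (14.3%), with a median of -0.198 that became -0.071 without Pifithrin-alpha 3. Axonal transport motors had 2 members wholly above and 3 wholly below of 17, and a median of -0.020. Among channels and receptors, Scn3b, the beta-3 subunit of sodium channels, stood at 34.9, 34.2 and 36.6 against 23.2, 14.8 and 19.6 scaled TPM (difference 0.86, SE 0.28). The Scn3b values of the Pifithrin-alpha libraries lay within the SMA range of 29.5 to 58.4. Gria2, the AMPA receptor subunit that blocks calcium entry, stood at 86.7, 87.8 and 108 against 51.3, 53.5 and 45.4 scaled TPM (difference 0.89, SE 0.30), and its difference over protein-coding transcripts alone was 0.38. As groups, potassium channels, sodium, calcium and HCN channels, and glutamate receptors had medians of 0.025, 0.123 and 0.090. GABA and glycine receptors were higher in 15 of 18 with a median of 0.225, and this list is AT-rich, at a median of 43.8% GC. Its median was 0.04 with the GC trend removed.

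The machinery that SMN serves did not separate the treatments as a group. Of 9 genes of the SMN complex, 1 lay wholly above and 1 wholly below, with a median of -0.077. Gemin7 stood at 118, 114 and 118 scaled TPM with Pifithrin-alpha and 176, 165 and 161 with SMN-C3, and Ddx20, the helicase of the complex, at 12.2, 9.54 and 11.1 against 8.55, 9.42 and 5.84. Their groups did not overlap but the directions were opposite. Sm, LSm and major snRNP proteins had 5 of 20 wholly below (25%) and 0 wholly above. Snrpd2, a core Sm protein, stood at 72.7, 83.5 and 75.3 against 124, 133 and 94.1 scaled TPM (difference -0.58, SE 0.21). The median of that list was 0.099, opposite in sign to its non-overlapping members, and -0.22 without Pifithrin-alpha 3. Minor spliceosome proteins, factors that recognize the end of the intron, and U7 snRNP factors had medians of -0.066, 0.013 and -0.036. Of 70 replication-dependent histone genes 36 passed the filter, 6 of these lay wholly above (16.7%) and 2 wholly below (5.6%), and the median was 0.023. Hist1h4h stood at 25.2, 18.2 and 19.3 against 12.0, 7.67 and 8.18 scaled TPM (difference 1.10, SE 0.33). Poly(A) selection was used, so histone transcripts without a poly(A) tail are largely outside the measurement. None of the 9 SMA modifiers and genes linked to SMN function lay wholly above or below. Tmem41b, a minor-intron gene whose splicing depends on SMN, overlapped at 37.0, 47.9 and 63.6 against 42.1, 39.3 and 40.8 scaled TPM.

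Transcripts annotated as retaining an intron took a larger share with Pifithrin-alpha. They made up 4.99%, 4.34% and 4.68% of TPM in Pifithrin-alpha 1, 2 and 3 (4.67% ± 0.33, SD, n = 3) and 3.16%, 3.20% and 3.15% with SMN-C3 (3.17% ± 0.025, SD, n = 3). SMA libraries held 3.56% to 4.802%, and WT 1, 2 and 3 held 6.20%, 4.08% and 3.92%. The SMN-C3 values were the lowest of these 4 groups and the tightest. An exact two-sided permutation test gave p = 0.1, the smallest that 3 against 3 libraries allow, and 0.16 adjusted over 8 shares tested, which are not independent of each other. Outside mitochondrial genes the shares were 5.34%, 5.00% and 5.92% against 3.59%, 3.42% and 3.41%. Protein-coding transcripts held 83.6% of TPM with Pifithrin-alpha and 86.4% with SMN-C3, also without overlap. Genes with under 25% of their TPM from protein-coding transcripts (708 genes) lay wholly above in 16.7% and wholly below in 5.23%.

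Among 22 transcripts of 6 genes fixed for a look at isoforms, the smallest exact permutation p was 0.1 and the smallest adjusted p 0.786. A short protein-coding transcript of U2af1, the small subunit of the factor that recognizes the splice acceptor (ENSMUST00000236475.1, 532 bases), held 39.8%, 26.9% and 26.3% of U2af1 TPM with Pifithrin-alpha and 13.01%, 24.8% and 19.2% with SMN-C3. Its mean share was 40.5% in SMA and 5.28% in WT, and the treatment means of 31% and 19% lay between them. Pifithrin-alpha 1 lay within the SMA range of 36.55% to 44.99%. The main protein-coding transcript of Mdm2 (ENSMUST00000020408.15) held 54.3%, 38.2% and 41.2% with Pifithrin-alpha and 76.8%, 61.0% and 83.7% with SMN-C3. The groups of both transcripts did not overlap. In WT 1, 2 and 3 the Mdm2 share was 6.51%, 64.0% and 86.2%. That spread was wider than the difference between the treatments and came through WT 1. WT 2 and 3 lay above every Pifithrin-alpha library. SMA 1, 2 and 3 held 64.9%, 53.5% and 60.6%, a mean of 59.7% between those of Pifithrin-alpha (44.6%) and SMN-C3 (73.8%). A transcript of Mdm2 annotated for nonsense-mediated decay held 3.4%, 42.5% and 47.3% in Pifithrin-alpha 1, 2 and 3. With SMN-C3 it held 9.17%, 25.05% and 8.48%, so the groups overlapped.

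**Figure D4:**
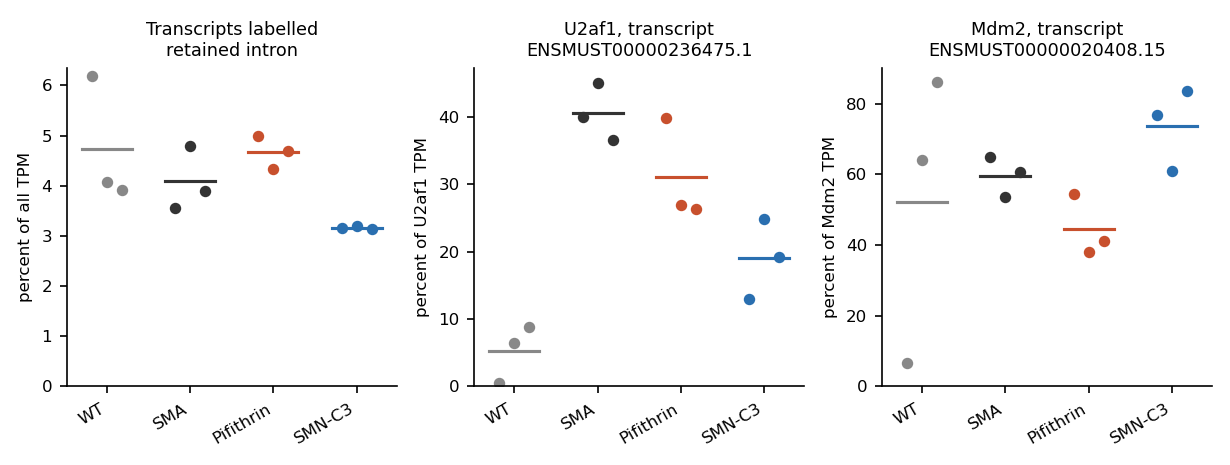
Percent of all TPM in transcripts annotated as retained intron (left), percent of U2af1 TPM in ENSMUST00000236475.1 (middle) and percent of Mdm2 TPM in ENSMUST00000020408.15 (right); points are libraries, bars group means, and axes start at 0. The 3 SMN-C3 libraries hold 3.15% to 3.20% retained intron and the 3 Pifithrin-alpha libraries 4.34% to 4.99%.

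Pathways on which Pifithrin-alpha is known to act besides p53 gave few differences. It is an agonist of the aryl hydrocarbon receptor, whose hallmark targets are cytochromes of the Cyp1 family. Cyp1a1 and Cyp1a2 were listed at 0 in all 6 libraries, and Cyp1b1 was at most 0.0687 TPM with Pifithrin-alpha and at 0 with SMN-C3. Of the 11 genes of that list 4 passed the filter, and only the receptor Ahr lay wholly above, at 3.62, 5.18 and 4.1 against 3.43, 1.94 and 2.85 scaled TPM. Heat shock genes, which the compound is reported to restrain, had 3 of 16 wholly below (18.8%) and 1 wholly above (6.2%). Hspb1, a small heat shock protein, stood at 60.4, 36.0 and 23.3 scaled TPM with Pifithrin-alpha, 158, 106 and 76.8 with SMN-C3 and 38.2 to 62.3 in SMA (difference -1.53, SE 0.36, limma adjusted p = 0.289). All SMN-C3 libraries lay above the SMA range, and Pifithrin-alpha 2 and 3 below it. Ahsa1 and Hsp90ab1, a co-chaperone and a chaperone of the Hsp90 system, were the others wholly below, while the list's median was 0.204, opposite in sign, and -0.05 without Pifithrin-alpha 3. None of 12 glucocorticoid receptor targets lay wholly above or below.

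Other stress and metabolic programmes stayed near the background or leaned towards SMN-C3. Of 13 genes of the unfolded protein response 3 lay wholly below (23.1%) and 1 wholly above (7.7%), with a median of -0.191, and 6 lay wholly below with the GC trend removed. Calr, the ER chaperone calreticulin, stood at 306, 265 and 288 against 387, 504 and 511 scaled TPM (difference -0.70, SE 0.20, limma adjusted p = 0.291). Sdf2l1 and Creld2, also of the ER, were wholly below by -0.82 and -0.67. In cholesterol synthesis 3 of 18 were wholly below (16.7%). These were Mvd at 27.0, 24.1 and 16.9 against 49.2, 49.0 and 44.4 scaled TPM, and Mvk and Fdps by -0.75 and -0.72. All 3 act in the mevalonate part of the pathway, a grouping made after the values were seen, and Idi1 of the same part was at 0.47 with overlapping groups. The median of the 18 was -0.092. In Pifithrin-alpha 1, 2 and 3, 9, 8 and 6 of the 18 lay below all SMN-C3 libraries. The integrated stress response, p38 and AP-1, and cell cycle lists had medians of -0.166, -0.233 and -0.059. Without Pifithrin-alpha 3 these medians were -0.061, 0.0 and -0.113. Junb, an AP-1 subunit, was wholly below at 14.3, 6.75 and 8.35 against 19.8, 15.5 and 16.6 scaled TPM. Members of the Bcl-2 family outside the p53 targets had a median of -0.250, which became 0.014 without Pifithrin-alpha 3. Bad, a BH3-only protein, stood at 32.7, 44.7 and 32.7 against 68.5, 66.2 and 66.2 scaled TPM (difference -0.86, SE 0.29). Bad was the 1 of 9 that lay wholly below.

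**Figure D5:**
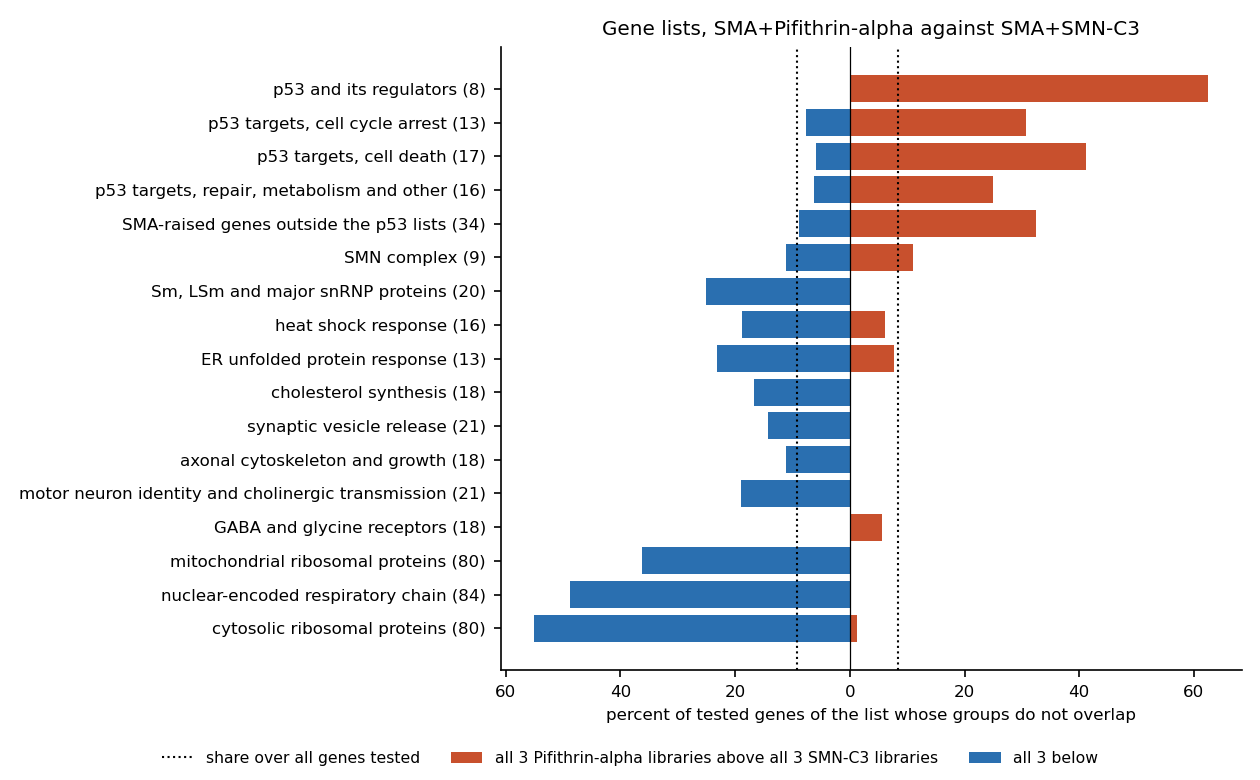
Percent of the tested genes of 17 lists (number tested in brackets) whose 3 Pifithrin-alpha libraries all lie above (right) or all below (left) the 3 SMN-C3 libraries; dotted lines mark the shares over all 15425 genes, 8.41% above and 9.28% below. The p53 and SMA-raised lists extend to the right, up to 62.5% for the regulators, and the ribosomal and respiratory chain lists to the left, up to 55%.

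The remaining genes with the smallest p were a mixed set, and none was called. Ccs, the copper chaperone of superoxide dismutase (ENSMUSG00000034108.6, chromosome 19, 4825366 to 4839332, minus strand), stood at 25.3, 27.1 and 25.5 scaled TPM with Pifithrin-alpha, 52.6, 71.7 and 62.1 with SMN-C3, 47.3 to 57.2 in SMA and 36.5 to 52.7 in WT. Here the Pifithrin-alpha libraries stood below WT, SMA and SMN-C3, and the difference was -1.21 (SE 0.22, limma adjusted p = 0.2). Arf5, a small GTPase of the Golgi, stood at 277, 244 and 187 against 463, 651 and 598 scaled TPM (difference -1.27, SE 0.25). Adm, the vasodilator peptide adrenomedullin, stood at 4.4, 1.58 and 2.56 against 6.79, 13.4 and 11.7 scaled TPM (difference -1.61, SE 0.40). Ccnd3, Fah, Comtd1, Rex1bd and Ankrd34a were also wholly below. On the higher side the list was uncertain in kind. Unc13d differed by 2.14, but 0.45% of its TPM came from protein-coding transcripts. Over protein-coding transcripts alone the difference of Arhgef40 was 0.03, down from 1.42. Gm47937, with a difference of 3.88, and Gm48789, with one of 2.23, are processed pseudogenes, and the latter overlaps Tmod3 on the same strand.

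Immune genes gave few and scattered differences. Of 10 genes of MHC class I presentation 2 lay wholly above, H2-T23 and Nlrc5, while the list's median was -0.291, opposite in sign. H2-T23, a nonclassical class I molecule, stood at 2.63, 8.82 and 55.9 scaled TPM with Pifithrin-alpha against 0.886, 1.37 and 0.717 with SMN-C3. Pifithrin-alpha 3 stood far above the other libraries. C1qa, a chain of the complement initiator C1q, overlapped at 8.75, 4.82 and 1.75 against 11.1, 11.3 and 7.41 scaled TPM, below the SMA values of 12.9 to 15.9 in both groups. Of 10 interferon-stimulated genes 2 lay wholly below, Bst2 and Ifi27, with a median of -0.004.

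Markers of other cell types were detected in all 6 libraries. The mean log2 level of 15 oligodendrocyte lineage markers was 4.92, 4.66 and 4.44 in Pifithrin-alpha 1, 2 and 3 and 5.65, 4.28 and 5.13 with SMN-C3. The groups overlapped, 12 of the 15 were lower with Pifithrin-alpha, 1 lay wholly below (Olig2), and the median was -0.369. Mbp, the myelin protein, stood at 590, 291 and 287 against 1102, 375 and 935 scaled TPM. Astrocyte markers had means of 5.61 to 5.65 against 5.16 to 5.87, and microglial markers 1.88 to 2.36 against 2.01 to 2.45, both overlapping. Within the microglial list P2ry12 and Ctss lay wholly above, by 1.19 and 0.81, while Tyrobp and Trem2 had differences of -1.22 and -1.08 with overlapping groups. Of 11 interneuron markers 4 passed the filter, and Tlx3 was listed at 0 in every library. Vascular, red blood cell, and Schwann and ependymal markers overlapped in their means. No marker list of these other cell types had library means that separated the 2 treatments. The motor neuron identity list did, at 5.95 to 6.03 with Pifithrin-alpha and 6.11 to 6.31 with SMN-C3. The part of cell composition in the differences was not tested.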

How the data were processed

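Per the submitters' processing notes, kallisto 0.44.0 and DESeq2 were used with GRCm38.p6 and mm10. The role of DESeq2 and the annotation release are not given in the sources used here. The authors deposited TPM per gene and per transcript for 15 libraries, and each column has the same total, with no scaling between libraries. Of 118489 transcripts 98.6% matched GENCODE M21, from which coordinates and transcript classes come.

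TPM were divided by median-of-ratios factors (0.634 to 1.23 in the 6 libraries compared), the filter kept genes reaching 1 TPM in 3 or more libraries, and log2(value + 1) was fitted in 1 limma 3.58.1 model over 15 libraries in 5 groups (R 4.3.3, trend on the mean, two-sided, Benjamini-Hochberg over 15425 genes). The fit was tested on simulated data. Lists are described by counts and medians, with no test. Shares of transcripts were compared by exact permutation. Members and lists were chosen with earlier results of these data known. Named genes are 12 fixed genes, up to 12 in each direction with the smallest p, groups that do not overlap and a group mean of at least 5, up to 4 per list, and up to 8 SMA-raised genes. Other list members named were chosen after their values were seen. Pearson correlations across genes of same-numbered libraries' deviations from their group means were -0.249, 0.048 and -0.063, so the numbers do not pair the libraries. Python 3.11.15, pandas 2.3.3 and matplotlib 3.10.9 were used for tables and figures. Alternatives covered scaling, pseudocount, filters, weights, covariates, left-out libraries, transcript class and GC content. Some genes that meet the naming rule are not reported here.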

Additional observations from a re-analysis of the deposited data

How the results depend on the processing

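The count of 0 genes called by limma held in 17 of 20 alternatives. It became 3 with a pseudocount of 0.1 (Ly6d, Tcea3 and Gm47937), 1556 with weights per library, and ranged from 0 to 5 when 1 library was left out, the 5 appearing without Pifithrin-alpha 1 (among them Zfp990, Gtpbp4, Unc13d and Brms1l). The cause of these changes was not tested. Removing the GC trend and restricting genes to protein-coding transcripts were chosen after seeing the data. The fit with the replicate number as a block (replicate block) called 0 genes, with 744 higher and 742 lower at an unadjusted p under 0.05, and the libraries share only a number.

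The medians of the p53 lists together, the SMA-raised genes, both ribosomal lists, the respiratory chain and motor neuron identity kept their sign in all 20 alternatives. The p53 median was 0.343 with quantile normalization, 0.503 and 0.256 with pseudocounts of 0.1 and 5, and 0.324 with a filter at a mean of 5 TPM. That of the SMA-raised genes was 0.399 with a pseudocount of 5, and that of the cytosolic ribosome -0.224 with quantile normalization. For motor neuron identity it was -0.178 with a pseudocount of 5, -0.444 with weights per library, -0.158 with the GC trend removed, and -0.472 to -0.194 when 1 library was left out. The cause of these shifts was not tested. Without counts, depth and its effect on genes with low levels are unknown.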
